A study of Mus musculus with 4 samples.

Results

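Genes of cholesterol synthesis that are targets of SREBP2, the sterol-sensing transcription factor, were examined in insulinomas treated with sEphB4-Alb or PBS. The members were named as a list of 8 genes, Hmgcs1, Idi1, Fdps, Fdft1, Sqle, Cyp51, Sc4mol and Insig1, and were found in the value table by their gene symbols. Of the 8, 6 were found among the 18091 genes of the table, and Hmgcs1 and Fdft1 were not analysed here. Of the 6, 5 were bright enough to be tested, together with 10523 genes in all. Sc4mol is an older symbol of Msmo1. Although the list concerns uptake as well as synthesis, all of its genes act in synthesis or its control, so genes of uptake were taken from a separate list below.

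RNA of insulinomas of sEphB4-Alb treated mice and of PBS treated mice was measured on Illumina MouseRef-8 v2.0 arrays, 2 per group. Whether an array held RNA of 1 tumor or of several is not stated, and each array is called a tumor below. sEphB4-Alb is the soluble extracellular part of the receptor EphB4 fused to albumin, which blocks signaling between EphB4 and Ephrin-B2. All mice were RIP1-Tag2 (RT2) animals, in which the insulin promoter drives SV40 large T antigen in beta cells, and both copies of Dll4 were intact in both groups. Mice, 6 per group, were injected intraperitoneally 3 times a week, starting at an age of 10 weeks and ending at 13.5 weeks, with 10 mg/kg sEphB4-Alb or with PBS, and all were given sugar water late in the course. The strain background was labelled as CD1 and as C57/BL6, and only C57/BL6 stands in the series design. Which mouse each tumor came from is not given in the sources used here, so the tumors may not be independent animals. The p-values below set a group difference against the spread among these tumors and may not extend to other mice.

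Cholesterol is made from acetyl-CoA by way of mevalonate, the isoprenoid diphosphates, squalene and lanosterol. When membrane sterol is plentiful, INSIG proteins hold SCAP and its cargo SREBP2 in the endoplasmic reticulum. When sterol is scarce, SREBP2 travels to the Golgi, is cleaved, and its released part switches on the genes of nearly every enzyme of the pathway and of Insig1 itself. In beta cells, cholesterol is a component of the insulin granule and of the cell membrane with which it fuses.

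Promoter sequences of 4 of the 6 members found were matched in RefSeq annotation of GRCm38.p6, as the 250 bases before the transcription start. These are shown because shared control by SREBP2 is what joins the members, and SREBP2 acts together with NF-Y and Sp1, which bind CCAAT and GC boxes. The motifs searched on both strands were the sterol regulatory element TCACNCCAC, a variant of it, TCACCTCAG, that was added after the sequences had been read, the CCAAT box CCAAT and the GC box GGGCGG. Over 32851 windows of this length, TCACNCCAC was in 1.05%, TCACCTCAG in 0.295%, CCAAT in 33.8% and GGGCGG in 32.7%. The windows of Cyp51 (chr5:4104698-4104947, minus strand), Msmo1, the gene listed as Sc4mol (chr8:64733579-64733828, minus strand), and Insig1 (chr5:28071162-28071411, plus strand) follow, 5′ to 3′, with matches to any of the motifs, or to their reverse complements, in capitals.
Cyp51: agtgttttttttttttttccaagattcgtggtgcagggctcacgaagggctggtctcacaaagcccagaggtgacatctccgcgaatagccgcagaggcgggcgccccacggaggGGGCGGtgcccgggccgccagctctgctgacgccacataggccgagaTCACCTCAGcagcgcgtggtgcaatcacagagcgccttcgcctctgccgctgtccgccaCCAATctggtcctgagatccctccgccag
Msmo1: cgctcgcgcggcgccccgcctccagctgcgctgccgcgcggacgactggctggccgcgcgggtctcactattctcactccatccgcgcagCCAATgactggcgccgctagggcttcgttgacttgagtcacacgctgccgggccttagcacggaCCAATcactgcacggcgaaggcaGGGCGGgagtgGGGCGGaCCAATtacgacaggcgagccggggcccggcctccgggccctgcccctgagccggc
Insig1: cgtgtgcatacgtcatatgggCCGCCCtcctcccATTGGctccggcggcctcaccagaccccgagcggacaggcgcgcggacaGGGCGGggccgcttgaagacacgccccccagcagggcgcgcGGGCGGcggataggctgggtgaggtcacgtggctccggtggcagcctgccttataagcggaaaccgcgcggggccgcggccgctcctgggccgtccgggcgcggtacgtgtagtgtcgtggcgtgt

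None of the 4 windows held TCACNCCAC, and the Cyp51 window held TCACCTCAG once, at 88 to 80 bases before the start. The Msmo1 window held 3 CCAAT boxes, at 160, 96 and 55 bases before the start, and 3 or more were present in 2.79% of all windows. Its 2 GC boxes lay between the second and the last of them. The Cyp51 window had 1 CCAAT box and 1 GC box, the Insig1 window 1 CCAAT box and 3 GC boxes, and the window of Idi1 (chr13:8885356-8885605, plus strand) 2 CCAAT boxes and 1 GC box. These are matches of letters and were not measured for binding.

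The deposited signals were linear intensities with medians of 159.9 and 168.7 on the sEphB4-Alb arrays and 135.5 and 141.6 on the PBS arrays. Signals were background-corrected, quantile normalized and put on the log2 scale, and a gene was tested where it exceeded the background level of its array in both tumors of at least 1 group. Genes above background numbered 10887 and 11311 in the sEphB4-Alb tumors and 9277 and 10413 in the PBS tumors. The median gene differed by -0.02 between the groups after quantile normalization, by 0.25 after median scaling and by 0.58 without normalization between arrays, so the direction of a small difference depends on the scaling. PBS tumor 1 correlated with the other tumors at 0.945 to 0.954 across genes, and the other 3 with each other at 0.975 to 0.979. Xist, a transcript of females, was at 8.27 and 9.24 in the sEphB4-Alb tumors and not above background, at 6.46 and 6.24, in the PBS tumors. The Y-linked Ddx3y was at 6.47 and 7.20 in the sEphB4-Alb tumors and at 8.92 and 9.49 in the PBS tumors. Ddx3y was above background in every tumor, but in sEphB4-Alb tumor 1 only narrowly, since a value of 6.36 there (Sc4mol) was not. Both genes together were well above background only in sEphB4-Alb tumor 2. The study describes RT2 mice on this schedule as male, which the Xist signals of the sEphB4-Alb tumors go against, and as these genes read it, sex and treatment cannot be told apart. Of 12 beta cell markers, 10 were above background, among them Ins1, Ins2 and Chga, but not Pcsk1 and Slc2a2.

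None of the 5 tested members differed between the groups by limma at an adjusted p under 0.05 (adjusted p = 0.761 to 0.954), nor did any of the 10523 genes (0%). At an unadjusted p under 0.05, limma called 0 of the 5 members, beside 3.79% of all genes called with the sEphB4-Alb tumors higher and 2.75% with them lower. With 2 tumors against 2, the smallest two-sided p that an exact permutation test can give is 0.33. Fdps, Sqle, Sc4mol and Insig1 had lower and Cyp51 had a higher mean in the sEphB4-Alb tumors, but after median scaling, or with no normalization between arrays, only Sc4mol was lower. A difference below 0 was thus found for 4 of 5 members, against 52.2% of all genes, and the median difference was -0.23 over the members and -0.02 over all genes. Relative to the median gene, 4 of the 5 lay below it under each of the 3 scalings. In whole tumors, fewer cells of a type and less RNA per cell cannot be told apart.

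**Figure D1:**
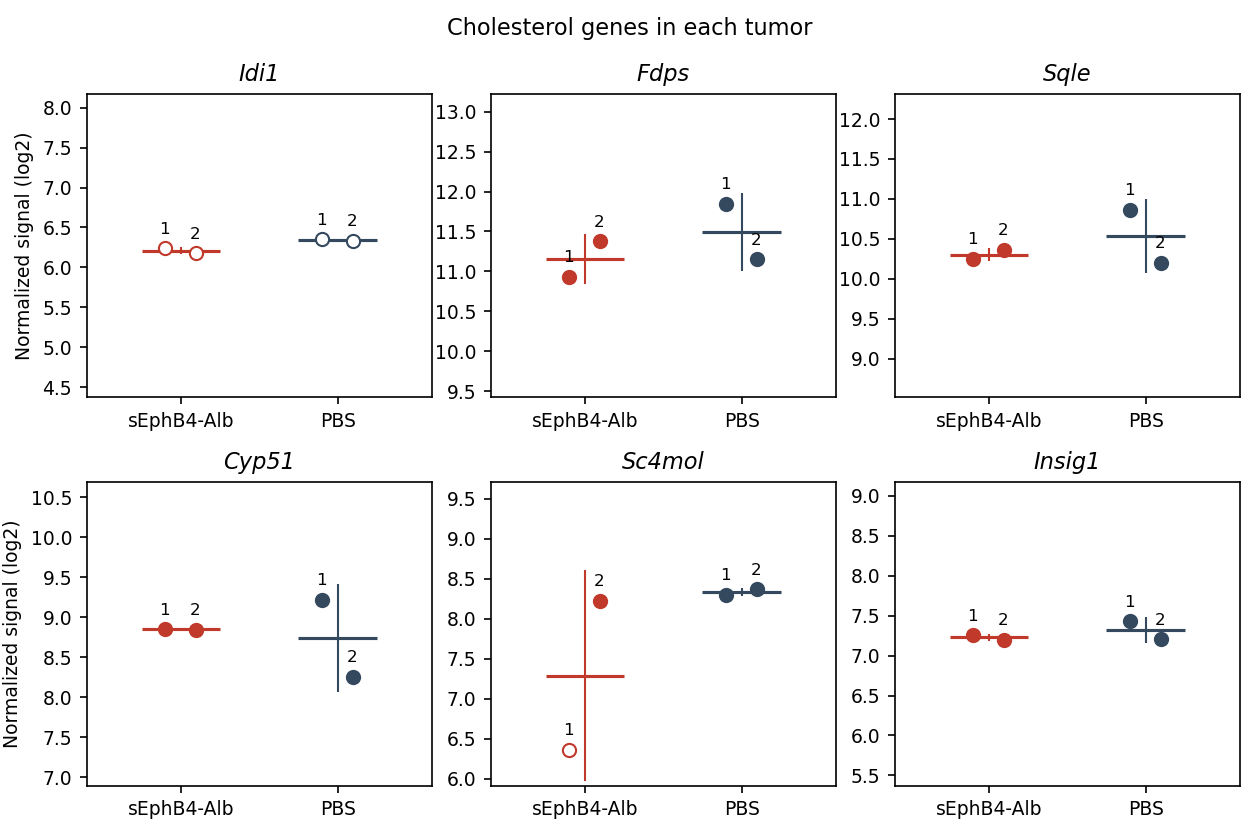
Normalized log2 signal of the 6 members found, 1 point per tumor with its number, in 2 sEphB4-Alb and 2 PBS tumors (horizontal line, mean; vertical line, SD; open points, not above background; every axis spans the same number of log2 units). The tumors of the groups interleave in Fdps, Sqle, Cyp51 and Insig1, and Sc4mol is set apart by sEphB4-Alb tumor 1 at 6.36.

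In the mevalonate part of the pathway, Idi1 (isopentenyl diphosphate isomerase, which interconverts the isoprenoid building blocks) could not be tested. Its deposited signals were 133.8 and 132 in the sEphB4-Alb tumors and 128.1 and 128 in the PBS tumors, below the background level of every array. Its normalized log2 signals of 6.24 and 6.18 in the sEphB4-Alb tumors and 6.35 and 6.34 in the PBS tumors did not overlap, but at this level no difference was measurable on these arrays.

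Fdps (farnesyl diphosphate synthase, at the branch point to sterols, prenylated proteins and ubiquinone) had deposited signals of 2189 and 3882 in the sEphB4-Alb tumors and 2096 and 2153 in the PBS tumors. Its normalized log2 signals were 10.93 and 11.38 in the sEphB4-Alb tumors and 11.84 and 11.15 in the PBS tumors. PBS tumor 1 was the highest and PBS tumor 2 fell between the sEphB4-Alb tumors, so the groups overlapped. The mean was 11.16 ± 0.32 in the sEphB4-Alb tumors and 11.50 ± 0.49 in the PBS tumors (SD, n = 2 each), a log2 difference of -0.34 (standard error 0.30, 95% interval -1.13 to 0.45, adjusted p = 0.811). The difference became 0.13 after median scaling, and it was 0.00 without PBS tumor 1 and -0.69 without PBS tumor 2.

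Sqle (squalene epoxidase, a rate-limiting oxygen-dependent step) had deposited signals of 1363 and 1922 in the sEphB4-Alb tumors and 1083 and 1155 in the PBS tumors, all far above background. After normalization it was at 10.25 and 10.36 in the sEphB4-Alb tumors and at 10.86 and 10.20 in the PBS tumors, which placed the sEphB4-Alb pair between the PBS tumors. The log2 difference was -0.23 (standard error 0.26, 95% interval -0.92 to 0.46, adjusted p = 0.844), and it was 0.22 after median scaling. The PBS tumors differed from each other by 0.66, more than the groups did. Without PBS tumor 1 the difference was 0.10, and without PBS tumor 2 it was -0.56 (unadjusted p = 0.028, limma). In this and in every other p with a tumor left out, the group left with 1 tumor has no spread of its own and is assumed to vary like the other group, so such a p does not establish a difference.

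Cyp51 (lanosterol demethylase, the first enzyme after ring closure) had 563.9 and 704.8 in the sEphB4-Alb tumors and 383.3 and 331 in the PBS tumors as deposited signals, both sEphB4-Alb tumors being the brighter. After normalization it was at 8.85 and 8.85 in the sEphB4-Alb tumors and at 9.22 and 8.26 in the PBS tumors. The sEphB4-Alb tumors were nearly equal and lay between PBS tumors 0.96 apart, the widest gap within the PBS group among the members. The log2 difference was 0.11 (standard error 0.34, 95% interval -0.79 to 1.00, adjusted p = 0.954). It was 0.60 without PBS tumor 1, where its spread was that of the nearly equal sEphB4-Alb tumors (unadjusted p = 0.021, limma), and -0.37 without PBS tumor 2. It was 0.59 after median scaling and 0.92 with no normalization between arrays (unadjusted p = 0.0218, limma).

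Sc4mol (the methylsterol oxidase that starts the removal of methyl groups from sterol intermediates) was the tested member with the largest difference and the only one of the 5 whose groups did not overlap. Its deposited signals were 141.2 and 465.6 in the sEphB4-Alb tumors and 241.1 and 354.5 in the PBS tumors, so that by deposited signal the sEphB4-Alb tumors were both the dimmest and the brightest. The signal of 141.2 was not above the background level of that array, 142.6. Sc4mol was thus tested only because both PBS tumors were above background, a rule that favors genes higher in the PBS tumors. Normalized log2 signals were 6.36 and 8.22 in the sEphB4-Alb tumors and 8.30 and 8.37 in the PBS tumors. The mean was 7.29 ± 1.32 in the sEphB4-Alb tumors and 8.33 ± 0.05 in the PBS tumors (SD, n = 2 each), and the log2 difference was -1.04 (standard error 0.62, 95% interval -2.65 to 0.56, adjusted p = 0.761), a fold of 0.485.

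The Sc4mol difference rested on sEphB4-Alb tumor 1. Without that tumor it was -0.11, without sEphB4-Alb tumor 2 it was -1.82, which sets the PBS tumors against a single signal not above background, and it was -1.15 and -1.02 without PBS tumors 1 and 2. Between the sEphB4-Alb tumors the gap was 1.86 in the normalized log2 signal, with its lower end not above background. A gap over 0.5 in this direction was found in 4.09% of all genes. As that limit is far below 1.86, the share does not say how rare the Sc4mol gap is. Groups lay apart with the sEphB4-Alb tumors lower in 1 of 5 members, against 20.7% of all genes, and apart with them higher in 0 of 5, against 18.5%. After median scaling or no normalization the Sc4mol groups overlapped. As reported, a difference over 2-fold lower was found in 0.314% of all genes. That of Sc4mol was -0.68 after median scaling, -0.35 without normalization and -0.78 without background correction, none of them over 2-fold. Relative to the median gene it was -0.93 both after median scaling and without normalization.

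Insig1, the only regulator among the members, had deposited signals of 223.9 and 243.2 in the sEphB4-Alb tumors and 168.9 and 186.5 in the PBS tumors. Its normalized values were 7.25 and 7.20 in the sEphB4-Alb tumors and 7.43 and 7.20 in the PBS tumors, so only PBS tumor 1 stood slightly above the rest. Its log2 difference of -0.09 had the narrowest interval of the members (standard error 0.17, 95% interval -0.53 to 0.35, adjusted p = 0.909). The difference was 0.18 after median scaling and 0.02 without PBS tumor 1.

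**Figure D2:**
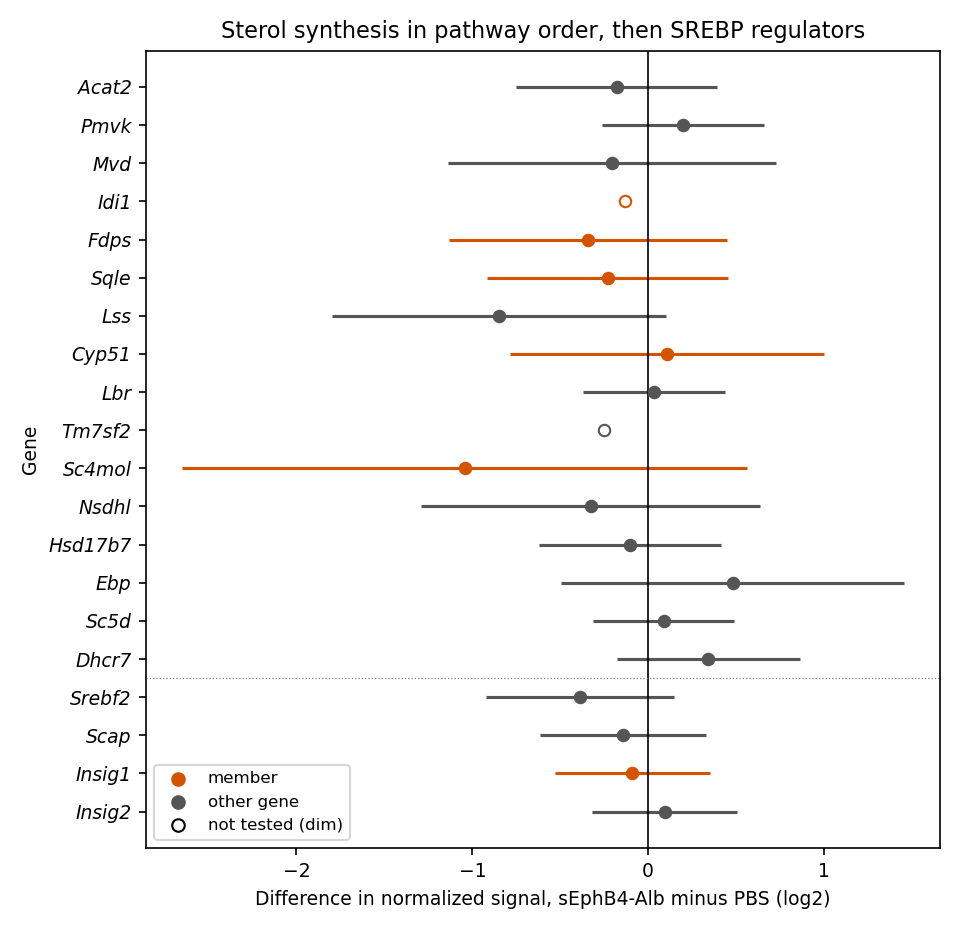
Log2 difference in normalized signal, sEphB4-Alb minus PBS, for enzymes of sterol synthesis in pathway order and, under the dotted line, 4 regulators (points, difference; lines, 95% interval from limma; open points, not tested; orange, members). Every interval includes 0, and Sc4mol, at -1.04, has the widest.

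The members did share a position of PBS tumor 1 after quantile normalization. It was the highest of the 4 tumors in 4 of 5 members, all but Sc4mol, against 35.5% of all genes, and it exceeded PBS tumor 2 by over 0.5 in 3 of 5 (Fdps, Sqle and Cyp51), against 12.6% of all genes. At the low end, sEphB4-Alb tumor 1 was the lowest in 2 of 5 (Fdps and Sc4mol), against 22.9% of all genes. The limit of 0.5 was chosen after the values were seen. Averaged over the 5 members, the deviation from each gene's own mean was -0.40 and 0.08 in the sEphB4-Alb tumors and 0.41 and -0.09 in the PBS tumors. The position of PBS tumor 1 did not hold under the other scalings, since it was highest in 0 of 5 members after median scaling and in 0 of 5 without normalization between arrays (10.7% and 1.21% of all genes). The difference of PBS tumor 1 from PBS tumor 2 had a median over the members of 0.66 after quantile normalization, where all genes had 0, of 0.06 after median scaling, where all genes had -0.29, and of -0.10 without normalization, where all genes had -0.46. Under each scaling the members' median thus lay above that of all genes.

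The direction of the group difference followed PBS tumor 1. Without it, 1 of 5 members lay below 0, and without PBS tumor 2, 5 of 5 did. Leaving out either sEphB4-Alb tumor kept 4 of 5 below 0.

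**Figure D3:**
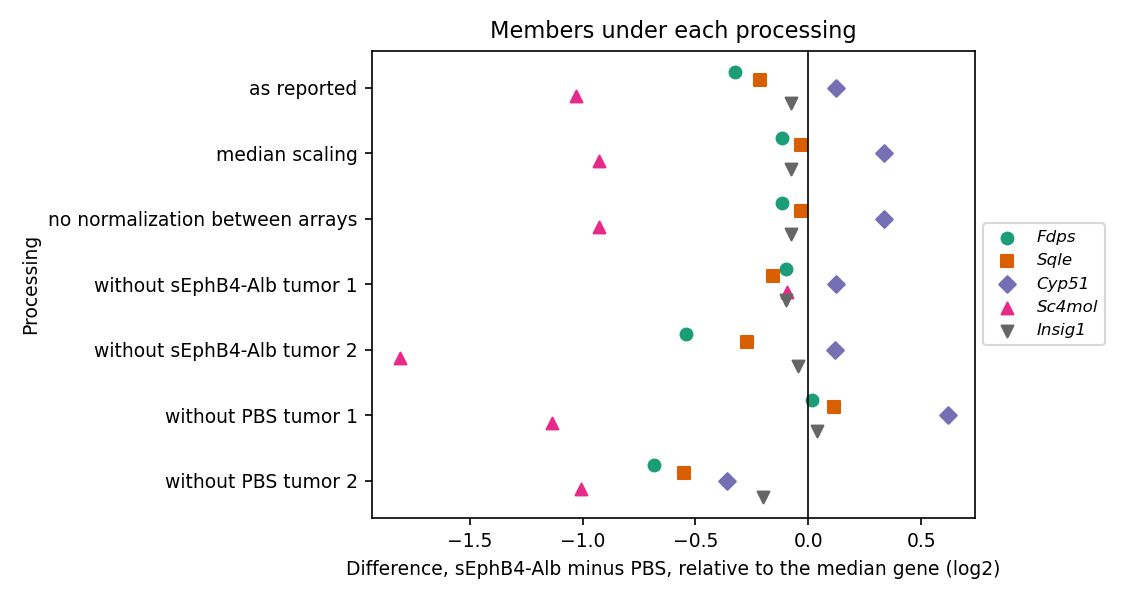
Log2 difference of the 5 tested members, sEphB4-Alb minus PBS, less the difference of the median gene (horizontal axis), under 7 ways of processing (vertical axis; 1 symbol per gene). Cyp51 is above the median gene in all but the last, and without PBS tumor 1 only Sc4mol remains below it.

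PBS tumor 1 was also the highest in most markers of the cell cycle after quantile normalization. Of 7 markers found, 6 were tested, all 6 with a difference below 0, which 2 of the 6 had after median scaling and 0 with unscaled arrays. Of all 10523 genes, 5496 had a difference below 0, with 2198 after median scaling and 223 with unscaled arrays. The median of the 6 markers was -0.19, and none was at an unadjusted p under 0.05 by limma. PBS tumor 1 was the highest in 5 of the 6, against 35.5% of all genes. Summed normalized signals of the 7 were 13430 and 15470 in the sEphB4-Alb tumors and 23090 and 15340 in the PBS tumors. As in the members, PBS tumor 1 was highest in 0 of the 6 after median scaling (10.7% of all genes). Bub1 was not above background in any tumor. The part of dividing cells in the members' values was not tested.

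The summed signal of 11 acinar markers, by contrast, was lowest in PBS tumor 1, at 12400 and 74750 in the sEphB4-Alb tumors and 2560 and 17580 in the PBS tumors. Summed signals of 12 beta cell markers were 54390 and 41050 in the sEphB4-Alb tumors and 32310 and 46990 in the PBS tumors, and those of 10 macrophage markers were 9591 and 8161 in the sEphB4-Alb tumors and 11700 and 5013 in the PBS tumors. Most of the macrophage sum of PBS tumor 1 was Lyz2, whose normalized log2 signal was 11.55 and 11.35 in the sEphB4-Alb tumors and 12.92 and 10.01 in the PBS tumors. Gene by gene, 8 of 10 tested beta cell markers had a difference above 0 (median 0.32), 5 had groups apart with the sEphB4-Alb tumors higher, and 3 were at an unadjusted p under 0.05 by limma, all higher. Of 9 tested macrophage markers, 8 had a difference above 0 (median 0.39), 7 had groups apart with the sEphB4-Alb tumors higher, and 3 were at an unadjusted p under 0.05 by limma, all higher. Of all 10523 genes, 5027 had a difference above 0, 18.5% had groups apart with the sEphB4-Alb tumors higher, and 3.79% were called higher.

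Of the genes listed as hepatocyte markers, Alb was not above background in any tumor, while Apoa1, Ttr and Serpina1a were above background in all 4. With the listed genes split in this way, the presence of hepatocytes was not established. Of the adipocyte markers, Fabp4 and Plin were not above background in any tumor, while Adipoq and Cfd were in all 4, Adipoq with a difference of -0.06 and Cfd with one of 1.43. Summed adipocyte signals were 649.8 and 564.2 in the sEphB4-Alb tumors and 428.3 and 435.8 in the PBS tumors. Of 7 tested fibroblast and mural cell markers, 5 had a difference above 0 (median 0.36) and 4 had groups apart with the sEphB4-Alb tumors higher (18.5% of all genes). Of these 7, 3 were called higher at an unadjusted p under 0.05 by limma (3.79%). Of 6 tested endothelial markers, 3 were above and 3 below 0, 1 was apart higher and 2 lower (20.7%), and 1 was called lower (2.75%). The part of acinar, beta, fibroblast, mural and endothelial cells, macrophages, hepatocytes and adipocytes in the members' values was not tested.

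Over the whole pathway, the 11 tested of 12 further sterol synthesis enzymes found (14 listed) had a median difference of 0.03, with 5 below and 6 above 0 and none at an unadjusted p under 0.05 by limma. The largest was that of Lss (lanosterol synthase, which closes the sterol rings), at 7.39 and 8.02 in the sEphB4-Alb tumors and 8.97 and 8.14 in the PBS tumors. Both sEphB4-Alb tumors were below both PBS tumors, as in 20.7% of all genes, with a log2 difference of -0.85 (standard error 0.37, adjusted p = 0.741). Again PBS tumor 1 was the highest, and without it the Lss difference was -0.45. Ebp, the sterol isomerase of a later step, was at 10.20 and 11.20 in the sEphB4-Alb tumors and 10.41 and 10.03 in the PBS tumors. Its difference of 0.48 (adjusted p = 0.802) was that of sEphB4-Alb tumor 2, and without that tumor it was -0.02.

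The enzymes fell into no single profile. With the members included, 15 enzymes were tested, of which 8 had a difference below 0 and 8 had PBS tumor 1 highest (3 and 2 after median scaling). Of all 10523 genes, 5496 had a difference below 0 and 3732 had PBS tumor 1 highest (2198 and 1122 after median scaling). After quantile normalization, PBS tumor 1 exceeded PBS tumor 2 by over 0.5 in 6 of the 15 enzymes (12.6% of all genes). Besides the members these were Mvd, Lss and Nsdhl, which make isopentenyl diphosphate, form lanosterol and act beside Sc4mol, with gaps between the PBS tumors of 0.62, 0.83 and 1.04. Such a gap was found in 1 of the 15 after median scaling (3.16% of all genes) and in 1 without normalization (1.94%). Groups lay apart with the sEphB4-Alb tumors higher in 4 of the 15 enzymes (18.5% of all genes) and lower in 2 (20.7%). Among the 4 was the late enzyme Dhcr7, a reductase that finishes cholesterol, with a difference of 0.34 that did not pass the test (adjusted p = 0.761, limma). It was at 7.71 and 8.03 in the sEphB4-Alb tumors and at 7.65 and 7.40 in the PBS tumors. Mvd, Nsdhl and Dhcr7 were picked after their values were seen.

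**Figure D4:**
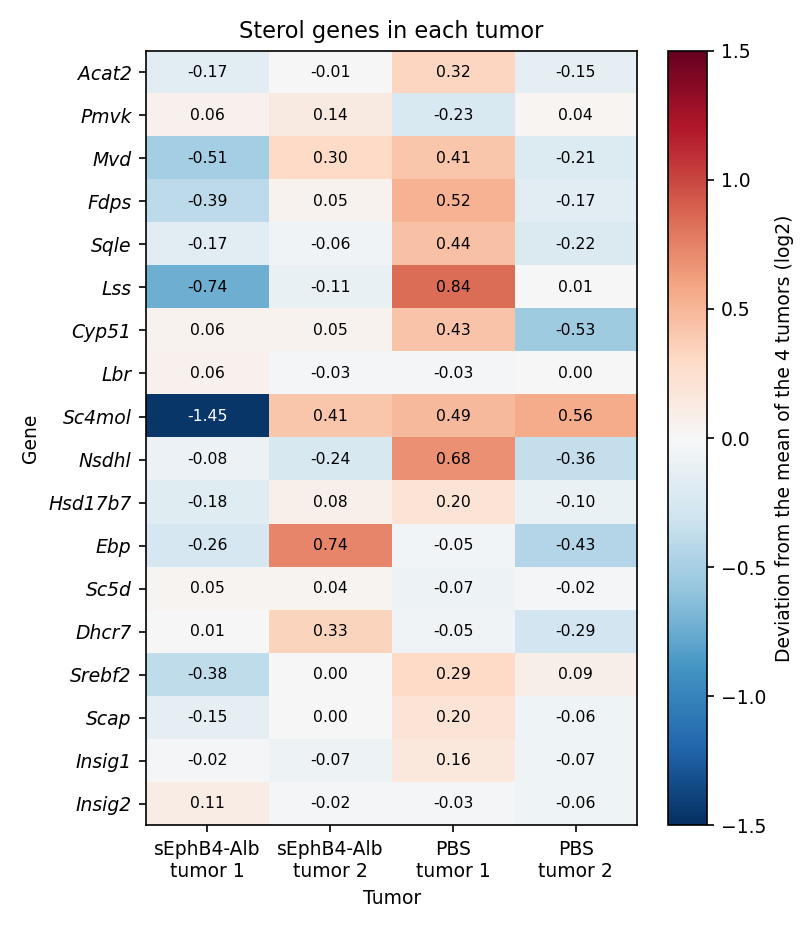
Deviation of each gene's normalized log2 signal from its own mean over the 4 tumors (color and printed value), for tested enzymes in pathway order and 4 regulators, in 2 sEphB4-Alb and 2 PBS tumors. PBS tumor 1 is the highest from Fdps through Cyp51, and Sc4mol is at -1.45 in sEphB4-Alb tumor 1.

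Among 8 regulators of SREBP processing, all found and 7 tested, the median difference was -0.09, with 5 below 0 and 0 at an unadjusted p under 0.05 by limma. Srebf2, which encodes SREBP2, was at 7.99 and 8.37 in the sEphB4-Alb tumors and 8.66 and 8.47 in the PBS tumors. The sEphB4-Alb tumors were the lower ones, by -0.39 (standard error 0.21, adjusted p = 0.756), but the difference was 0.05 after median scaling and -0.20 without sEphB4-Alb tumor 1. Scap, the escort of SREBP2, was at -0.14 and Insig2, the partner of Insig1, at 0.09, values picked after they were seen.

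Of the genes of lipoprotein uptake and sterol transport, 13 were listed, 11 found and 9 tested, with a median difference of -0.01 and 0 at an unadjusted p under 0.05 by limma. The largest differences in this list were those of Npc2, which takes cholesterol out of lysosomes, at 0.45 (9.33 and 9.13 in the sEphB4-Alb tumors, 8.53 and 9.04 in the PBS tumors, adjusted p = 0.753), and of Stard4, a cytosolic sterol carrier, at -0.43 (8.52 and 9.12 in the sEphB4-Alb tumors, 9.40 and 9.11 in the PBS tumors, adjusted p = 0.761). That of Npc2 was 0.20 without PBS tumor 1 and 0.70 without PBS tumor 2. That of Stard4 was 0.05 after median scaling, and it was -0.13 without sEphB4-Alb tumor 1 and -0.72 without sEphB4-Alb tumor 2.

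All list genes at an unadjusted p under 0.05 by limma, 4 higher and 2 lower, were in 3 neighboring lipid pathways, and none passed the adjustment (adjusted p = 0.741 for each). Over all genes, 3.79% were called higher and 2.75% lower. Among 9 tested genes of SREBP1-driven fatty acid synthesis, 7 had a difference above 0, with a median of 0.23, and 2 were called. Mod1, an older symbol of Me1, the malic enzyme that supplies NADPH, was at 8.22 and 8.31 in the sEphB4-Alb tumors and 7.04 and 7.60 in the PBS tumors, a difference of 0.94 (standard error 0.24, unadjusted p = 0.0113). Scd1, the stearoyl-CoA desaturase, was at 8.13 and 7.58 in the sEphB4-Alb tumors and 7.04 and 7.20 in the PBS tumors, a difference of 0.73 (standard error 0.24, unadjusted p = 0.0283). In both genes the groups did not overlap, as in 18.5% of all genes with the sEphB4-Alb tumors higher. Both stayed above 0 under every scaling, but so did most genes. Of the 10523 genes, 2198 were below 0 after median scaling and 223 without normalization. Relative to the median gene, Mod1 was at 0.96 under each scaling and Scd1 at 0.71 to 0.75. Without sEphB4-Alb tumor 2, Mod1 was at 0.85 (unadjusted p = 0.0589, limma). Scd1 was at 0.46 without sEphB4-Alb tumor 1 (unadjusted p = 0.183, limma) and missed the threshold without either PBS tumor as well.

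The 12 tested genes of sterol efflux, storage and LXR action had a median difference of 0.23, with 1 called in each direction. Abcg4, a sterol export pump, was at 7.97 and 7.55 in the sEphB4-Alb tumors and 9.02 and 8.41 in the PBS tumors, a difference of -0.95 (standard error 0.28, unadjusted p = 0.0206, limma). Leaving out PBS tumor 1 gave -0.67 and leaving out sEphB4-Alb tumor 2 gave -0.72 (unadjusted p = 0.0587 and 0.105, limma), and median scaling gave -0.53 (unadjusted p = 0.0628, limma). Cyp46a1, which hydroxylates cholesterol for export from neurons, was at 7.06 and 6.90 in the sEphB4-Alb tumors and 6.32 and 6.58 in the PBS tumors, a difference of 0.53 (unadjusted p = 0.0341, limma). It was above background in 1 PBS tumor only, and so was tested only through the sEphB4-Alb tumors. Leaving out any tumor but PBS tumor 2 left it short of the threshold, with an unadjusted p up to 0.217 by limma. Cyp7b1, the oxysterol hydroxylase, had a difference of 0.65 (adjusted p = 0.749), which was 0.29 without PBS tumor 1, 1.00 without PBS tumor 2 and 0.39 without sEphB4-Alb tumor 1.

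The isoprenoid branches, which draw on the product of Fdps, had 7 genes tested and a median difference of -0.10, with 1 called in each direction. Coq2, which prenylates the ubiquinone ring, was at 9.75 and 9.57 in the sEphB4-Alb tumors and 8.81 and 9.31 in the PBS tumors, a difference of 0.60 (unadjusted p = 0.0497, limma). Icmt, which methylates prenylated proteins, was at 9.51 and 9.59 in the sEphB4-Alb tumors and 9.91 and 10.31 in the PBS tumors, a difference of -0.56 (unadjusted p = 0.0396, limma) that was 0.23 without normalization between arrays. Each missed the threshold when any of 3 tumors was left out, all but PBS tumor 2 for Coq2 (unadjusted p up to 0.204, limma) and all but PBS tumor 1 for Icmt (unadjusted p up to 0.174, limma).

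**Figure D5:**
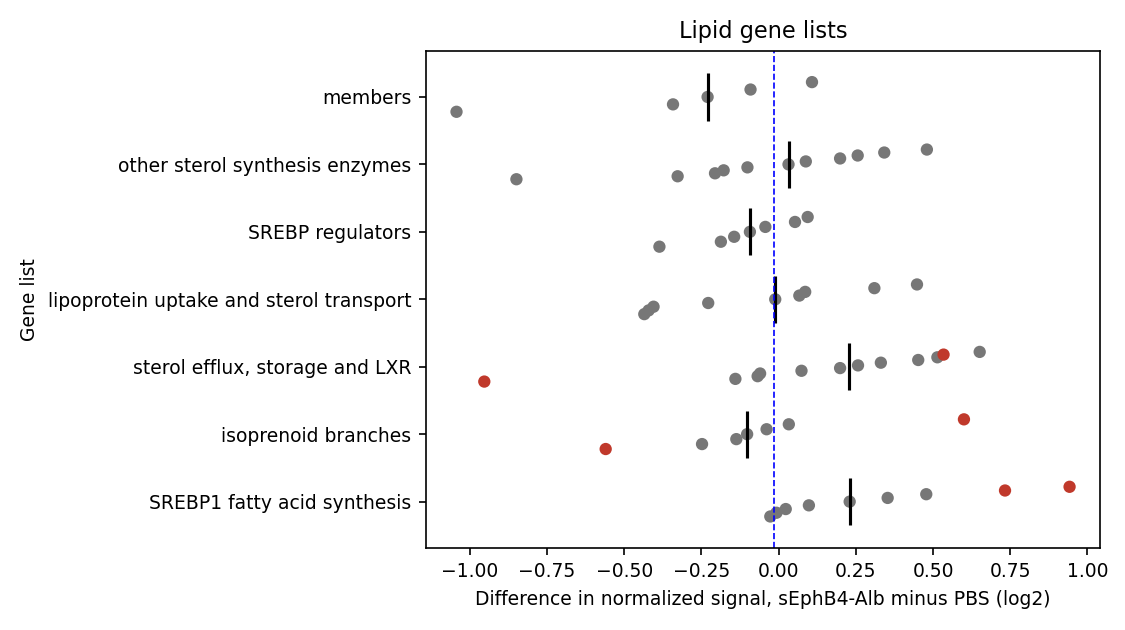
Log2 differences, sEphB4-Alb minus PBS, of the tested genes of 7 lists (points, genes; black lines, list medians; dashed blue line, median of all genes; red, unadjusted p under 0.05 by limma). The members have a median of -0.23, and the fatty acid genes one of 0.23 with Mod1 and Scd1 in red.

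The 5 genes outside the members whose values lay closest to the members' mean deviations over the 4 tumors were LOC100044829, Llgl2, Wbp1, Rbm28 and Nxf1, with root mean square differences of 0.02 to 0.04. Of the members themselves, Fdps lay closest to that mean, at 0.07, followed by Sqle at 0.15, Insig1 at 0.24, Cyp51 at 0.32 and Sc4mol at 0.64.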

How the data were processed

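Total RNA of sEphB4-Alb and PBS insulinomas had been labelled and hybridized by the study, to 2 arrays per group. The deposited values were linear signal intensities, 1 per gene symbol, whose medians differ between arrays, so the authors had not brought them to a common median or distribution. Whether they had subtracted background or scaled otherwise, and with what software, was not given in the sources used here. There were also 8 value columns that could be matched to no sample by name, and these were left out.

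Signals were corrected by normexp (offset 50), quantile normalized and log2 transformed. Groups were compared by limma 3.58.1 (lmFit, eBayes; R 4.3.3), with Benjamini-Hochberg adjustment over all genes tested. Detection p-values were not used. The background level of an array was the mode of its signals under 300 plus 1.645 times the spread below that mode, a rule chosen after the data were seen. The number of arrays limits the precision, and differences are of mean log2 values. Quantile normalization and the limma fit were tested on simulated data, without the background correction and the filter.

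The members and all lists were chosen with earlier results of these data known. Named genes were the members, the list genes at an unadjusted p under 0.05, the 2 of each list with the largest difference, and the 5 nearest in profile. Some genes that the rule or the lists hold are counted but not reported by name. Alternatives were other background, scaling, filter and variance settings, the exact Mann-Whitney-Wilcoxon test, a replicate block, ratios of mean deposited signals and leaving out each tumor. A background level from the density of log2 signals was an alternative chosen after seeing the data. Promoters were RefSeq sequences of GRCm38.p6, and figures were drawn with matplotlib 3.10.9.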

Additional observations from a re-analysis of the deposited data

How the results depend on the processing

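No member passed an adjusted p under 0.05 under any alternative that gives a test. The count of members lower with groups apart, 1 as reported (20.7% of all genes), was 0 after median scaling (6.36%) and 0 without normalization (0.475%). It was 0 of 4 when only genes above background on all 4 arrays were kept (23.3%), a rule that drops Sc4mol. With a tumor left out it was 1 to 5 (31% to 42.1% of all genes). The count higher with groups apart, 0 as reported (18.5% of all genes), was 2 after median scaling (37.1%) and 4 without normalization (73.7%). With a tumor left out it was 0 to 2 (28.6% to 40.5% of all genes). Members at an unadjusted p under 0.05 by limma numbered 0 as reported and 1 without normalization, where the median gene was at 0.58. The share of all genes called without normalization was not counted. The exact Mann-Whitney-Wilcoxon test called 0, since its smallest p here is 0.333. The median difference of the members, -0.23, was 0.18 after median scaling, 0.51 without normalization and -0.56 to 0.023 with a tumor left out.

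After median scaling the difference was above 0 for Sqle (0.22), Fdps (0.13), Insig1 (0.18), Srebf2 (0.053) and Stard4 (0.047). Without normalization it was above 0 for Sqle (0.55), Fdps (0.46), Insig1 (0.51), Icmt (0.23), Srebf2 (0.38) and Stard4 (0.38). The log2 ratio of mean deposited signals was 0.55 for Sqle, 0.52 for Fdps, 0.83 for Cyp51, 0.027 for Sc4mol and 0.40 for Insig1. With a tumor left out, the range was -0.56 to 0.10 for Sqle, -0.69 to 0.004 for Fdps, -0.37 to 0.60 for Cyp51, -1.82 to -0.11 for Sc4mol, -0.21 to 0.023 for Insig1 and -0.016 to 0.97 for Ebp. Cyp51, 0.11 as reported, was 0.59 after median scaling and 0.92 without normalization. Median scaling and no normalization leave the median gene shifted by 0.25 and 0.58, and the cause of the other changes was not tested.

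List genes at an unadjusted p under 0.05 and higher numbered 4 as reported, 16 without normalization, 2 when above background on all 4 arrays, 0 without moderation of variances and 1 to 7 with a tumor left out. Those lower numbered 2 as reported, 0 after median scaling, 0 without normalization, 1 with an intensity trend and 1 to 3 with a tumor left out. Over all genes tested, 1 passed the adjusted threshold without moderation, against 0 under the other fits.

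Tumors of the groups share replicate numbers, and deviations of same-numbered tumors from their group means correlated at 0.04. With 2 tumors per group the deviations are equal and opposite, so this is 1 value for both numbers. Whether a number pairs tumors is not stated, and this value cannot settle it. With the replicate number as a block, the median difference of the members was -0.23, and 0 members, 2 higher list genes and 1 lower list gene were at an unadjusted p under 0.05.

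With 2 tumors per group, intervals of the members were wide, and differences within them were not measurable on these arrays. Signals near background, such as those of Idi1 and of Sc4mol in sEphB4-Alb tumor 1, hold little information on level. Each gene has 1 value, so probes of a gene were not compared. The sex of the mice, where its marker genes differ between the groups, cannot be told apart from treatment.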
